A study of Mus musculus with 12 samples.

Results

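The 10 genes described here are imprinted genes tied to growth, *H19*, *Meg3*, *Zim1*, *Cdkn1c*, *Grb10*, *Igf2*, *Dlk1*, *Peg3*, *Plagl1* and *Mest*, taken by name from the 37675 genes listed for each library. They were chosen by their falling levels in these same testes, so those levels and fold changes are given as a description and carry no p-value. RNA was measured in whole testes of C57BL/6NHsd mice at postnatal day (PND) 7, 14, 17, 21 and 28, with 2 mice at each age. The labels name no treatment and no genotype other than the strain. Total RNA was depleted of ribosomal RNA and sequenced on the SOLiD platform, and each PND 7 mouse was sequenced as 2 barcodes, which were summed. The ages follow the first wave of spermatogenesis, in which spermatogonia and somatic cells at PND 7 are joined by spermatocytes and then, from about PND 21, by spermatids. The mice are inbred and the counts do not separate the parental alleles, so imprinting itself was not measured.

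Genomic imprinting leaves a gene active from the copy inherited from only 1 parent. It rests on DNA methylation set in the germ line of 1 parent, at the gene or at a control region. In the embryo and fetus many paternally expressed genes favour growth and many maternally expressed genes restrain it, and several of them are shut down in most organs after birth. In the textbook assignment *H19*, *Meg3*, *Zim1* and *Cdkn1c* are expressed from the maternal copy, as is *Grb10* in most tissues outside the brain. *Igf2*, *Dlk1*, *Peg3*, *Plagl1* and *Mest* are expressed from the paternal copy. Germ cells erase and reset these marks, so whole testis mixes somatic cells that carry parental imprints with germ cells that carry sex-specific ones.

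The mice held 3994026 to 13559548 counts (median 7103531). Levels are given as CPM, counts per 1000000 counts of the mouse after scaling with TMM factors. Where genes are compared with each other they are given as RPKM. This is the authors' own value, divided by exon length and library size, and it carries no TMM factor. A gene was called between ages at a Benjamini-Hochberg adjusted p under 0.05 in edgeR's quasi-likelihood test over 16860 genes and a fold change of at least 2. PND 14 mouse 1 stood apart from its pair, since it held a summed 180.8 CPM of 5 spermatid markers against 7.89 CPM in PND 14 mouse 2, so results of the PND 7 to PND 14 comparison are also given without it. In whole testis, fewer cells of a type and less RNA in each cell cannot be told apart.

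At PND 28, 8 genes stood far below their PND 7 level and 2 did not. *Zim1*, *H19*, *Dlk1*, *Plagl1* and *Meg3* kept 0.198%, 1.09%, 1.76%, 1.97% and 1.97% of their mean PND 7 CPM, and *Peg3*, *Igf2* and *Mest* kept 5.90%, 7.41% and 9.08%. *Cdkn1c* stood at 60.6% and *Grb10* at 78.2%. *Cdkn1c* had been down to 15.5% at PND 21, so it goes against a common label of falling only at its last age. *Grb10* was at 67.4% at its lowest mean, at PND 21, was called lower in no comparison and goes against that label. No age before PND 7 was measured. All 10 genes passed the filter on low counts. Between PND 7 and PND 28, 8 of them were called lower, where 23.4% of all genes tested were called lower, and the 2 PND 28 mice lay below both PND 7 mice in all 10, as they did in 37.4% of all genes tested. Both the choice of genes and these counts come from the same levels, so nothing is read from the difference.

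**Figure D1:**
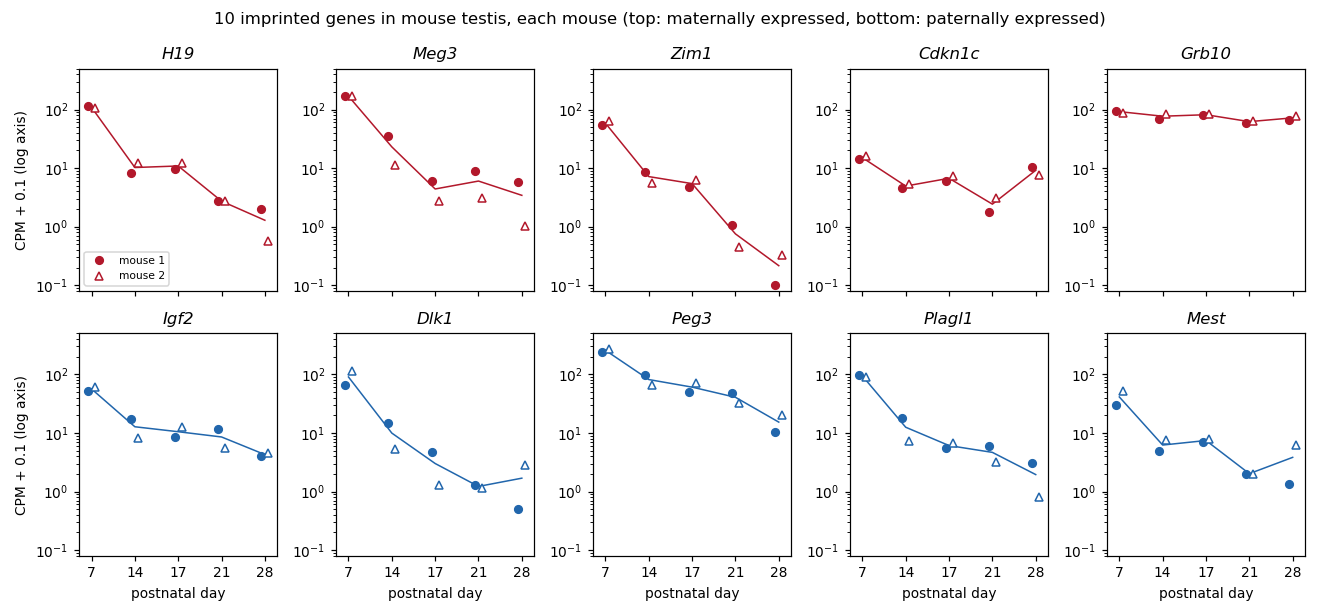
CPM plus 0.1 on a log axis against postnatal day for each of the 10 genes, with 1 point per mouse (filled circle, mouse 1; open triangle, mouse 2) and a line through the means of 2 mice. The 9 genes other than *Grb10* drop between PND 7 and PND 14, *Zim1* ends at 0 and 1 counts, *Cdkn1c* climbs again at PND 28 and *Grb10* stays between 59.4 and 95.8 CPM.

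*H19* (ENSMUSG00000000031, chr7:149761434-149764048 in mm9, minus strand) makes a noncoding RNA of the fetal growth network and was the most abundant of the 10 per length at PND 7. Its level was 113 and 104 CPM in the PND 7 mice, 8.14 and 12.1 CPM at PND 14, 9.42 and 12.1 CPM at PND 17, 2.63 and 2.62 CPM at PND 21, and 1.91 and 0.462 CPM at PND 28. The drop came in 2 steps, with PND 14 and PND 17 overlapping. The log2 fold change was -3.43 (SE 0.36) from PND 7 to PND 14, or -3.20 without PND 14 mouse 1, and -2.01 from PND 17 to PND 21, where it was called. At PND 28 16 counts were left of 1906 at PND 7, which is 1.25% by pooled counts (exact 95% interval 0.715% to 2.04%, counting error only).

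The exonic sequence of *H19* holds the hairpin of *Mir675* (chr7:149762969-149763052 in mm9, 84 bases, all exonic and on the same strand), and the hairpin in RefSeq was identical to that stretch of the mouse genome. Its mature products are shown because they are the known small RNA output of this transcript. The capitals mark the seed, bases 2 to 8, through which a miRNA pairs with its targets.
mmu-miR-675-5p: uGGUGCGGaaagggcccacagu
mmu-miR-675-3p: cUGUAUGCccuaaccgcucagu
The separate row for this hairpin held 30 and 18 counts in the PND 7 mice, 0 and 4 at PND 14, 0 and 2 at PND 17, 1 and 1 at PND 21, and 0 and 0 at PND 28. These few reads fell on the *H19* exon, and a read from the long transcript cannot be told apart from one of the miRNA precursor.

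*Meg3* (ENSMUSG00000021268, chr12:110779211-110809936 in mm9, plus strand) is the noncoding RNA of the *Dlk1* domain and restrains proliferation in several cell types. It stood at 168 and 169.8 CPM at PND 7, 34.8 and 11.0 CPM at PND 14, 5.93 and 2.66 CPM at PND 17, 8.83 and 2.97 CPM at PND 21, and 5.73 and 0.923 CPM at PND 28. Mouse 1 was the higher at every age from PND 14 on, by 2.23 to 6.20 times, and mouse numbers pair no animals across ages. The log2 fold change from PND 7 to PND 14 was -2.88 (SE 0.64) and was -3.96 without PND 14 mouse 1. Another nuclear noncoding RNA, *Malat1*, chosen after its values were seen, stood at 12200 and 14170 CPM at PND 7. From PND 14 on it showed the same order of mice, with 3958 and 1535 CPM at PND 14 and 846.7 and 802.4 CPM at PND 17. It had 2775 and 750.3 CPM at PND 21 and 1051 and 688 CPM at PND 28. At PND 17 the 2 mice were close in *Malat1* while *Meg3* differed 2.23-fold, and whether the gaps of the 2 RNAs share a source was not tested. *Rian*, a noncoding RNA of the same domain as *Meg3*, did not keep this order. It had 35.3 and 42.7 CPM at PND 14 and 34.1 and 31.2 CPM at PND 17. Its later levels were 10.7 and 22.4 CPM at PND 21 and 20.5 and 17.3 CPM at PND 28.

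Exons of *Meg3* contain the hairpins of *Mir1906-1* (80 bases) and *Mir770* (94 bases), both on its strand. Their mature sequences are shown with the seed in capitals as the small RNAs that share bases with *Meg3*.
mmu-miR-1906: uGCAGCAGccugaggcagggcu
mmu-miR-770-5p: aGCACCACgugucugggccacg
mmu-miR-770-3p: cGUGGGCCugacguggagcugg
The *Mir1906-1* row held 33 counts in PND 7 mouse 1 and 0 in PND 7 mouse 2, although *Meg3* itself had 1678 and 1264 counts in them, then 5 counts in PND 14 mouse 1 and 0 in every other mouse. *Mir770* was at 0 counts in all 10 mice. No 2 of the mature miRNAs within these genes shared a seed.

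*Zim1* (ENSMUSG00000002266, chr7:6628154-6649161 in mm9, minus strand) encodes a zinc finger protein beside *Peg3* and came closest to disappearing. It measured 53.4 and 63.3 CPM at PND 7, 8.58 and 5.52 CPM at PND 14, 4.60 and 6.05 CPM at PND 17, 0.954 and 0.350 CPM at PND 21, and 0 and 0.231 CPM at PND 28. Those last values are 4 and 2 counts at PND 21 and 0 and 1 count at PND 28. By pooled counts 1.05% of the PND 7 level was left at PND 21 (exact 95% interval 0.385% to 2.30%) and 0.149% at PND 28 (0.00376% to 0.831%). The fitted log2 fold change was -3.04 (SE 0.40) from PND 7 to PND 14, or -3.43 without PND 14 mouse 1, and -3.05 from PND 17 to PND 21, where *Zim1* was called.

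*Cdkn1c* (ENSMUSG00000037664, chr7:150644255-150646955 in mm9, minus strand) encodes p57Kip2, an inhibitor of cyclin-dependent kinases, and went down and up again. It read 13.9 and 16.0 CPM at PND 7, 4.40 and 5.26 CPM at PND 14, 5.93 and 7.26 CPM at PND 17, 1.67 and 2.97 CPM at PND 21, and 10.5 and 7.62 CPM at PND 28. Both PND 28 mice lay above every mouse of PND 14, PND 17 and PND 21 and below both PND 7 mice. The log2 fold change from PND 21 to PND 28 was +1.94 (SE 0.44), the only rise among the 10 genes that was called between any 2 ages compared. From PND 7 to PND 28 it had -0.71 (SE 0.38), not called, and -1.04 when library totals replaced the TMM factors, where it was called lower. The call of the late rise was lost when either PND 21 mouse or either PND 28 mouse was left out, and the call between PND 7 and PND 14 was lost without PND 14 mouse 1 (log2 fold change -1.53).

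*Grb10* (ENSMUSG00000020176, chr11:11830511-11938686 in mm9, minus strand) encodes an adaptor that binds the insulin and IGF1 receptors and dampens their signal. Its level was 95.8 and 88.0 CPM at PND 7, 68.6 and 84.8 CPM at PND 14, 79.2 and 83.5 CPM at PND 17, 59.4 and 64.5 CPM at PND 21, and 67.2 and 76.6 CPM at PND 28. The log2 fold change of -0.36 (SE 0.20) from PND 7 to PND 28 was not called, nor was any step between, and from PND 7 to PND 14 the value was -0.26, or -0.15 without PND 14 mouse 1. When library totals replaced the TMM factors the PND 7 to PND 28 value was -0.68. Over that span the log2 fold changes of all genes tested shifted by a median of -0.322 between those scalings.

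*Igf2* (ENSMUSG00000048583, chr7:149836673-149852721 in mm9, minus strand) encodes insulin-like growth factor 2, the main fetal growth factor of the mouse. It measured 52.0 and 60.6 CPM at PND 7, 17.3 and 8.02 CPM at PND 14, 8.44 and 12.3 CPM at PND 17, 11.5 and 5.42 CPM at PND 21, and 3.95 and 4.39 CPM at PND 28. The PND 7 mice lay above all others, the 3 middle ages overlapped, and the PND 28 mice lay lowest. From PND 7 to PND 14 the log2 fold change was -2.15 (SE 0.42), or -2.84 without PND 14 mouse 1. *Igf2as* on the other strand shares 98 exon bases with *Igf2* and held 34 counts in all.

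*Dlk1* (ENSMUSG00000040856, chr12:110691033-110701546 in mm9, plus strand) encodes a membrane protein related to Notch ligands that keeps precursor cells from differentiating, and it is made in fetal Leydig cells and their precursors. Its level was 66.0 and 114 CPM at PND 7, 14.4 and 5.26 CPM at PND 14, 4.60 and 1.21 CPM at PND 17, 1.19 and 1.05 CPM at PND 21, and 0.409 and 2.77 CPM at PND 28. The means fell at each age up to PND 21, and the PND 28 mice spanned the PND 21 pair. Between PND 7 and PND 14 the log2 fold change was -3.18 (SE 0.64), and -4.12 without PND 14 mouse 1.

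*Peg3* (ENSMUSG00000002265, chr7:6656603-6683132 in mm9, minus strand) encodes a large zinc finger protein and had the highest CPM of the 10 at PND 7. It stood at 239 and 276 CPM at PND 7, 97.9 and 65.1 CPM at PND 14, 49.3 and 71.6 CPM at PND 17, 48.9 and 32.2 CPM at PND 21, and 10.1 and 20.3 CPM at PND 28. The PND 28 pair was below every earlier mouse. Its log2 fold change was -1.66 (SE 0.35) from PND 7 to PND 14, or -2.02 without PND 14 mouse 1, and -1.44 (SE 0.37) from PND 21 to PND 28, where it was called. That last call was lost without PND 17 mouse 1 or 2, PND 21 mouse 1 or 2, or PND 28 mouse 1.

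*Plagl1* (ENSMUSG00000019817, chr10:12810497-12851500 in mm9, plus strand) encodes the zinc finger transcription factor ZAC1, which can activate other imprinted genes. It measured 98.4 and 89.4 CPM at PND 7, 17.7 and 7.10 CPM at PND 14, 5.44 and 6.53 CPM at PND 17, 5.97 and 3.15 CPM at PND 21, and 2.999 and 0.692 CPM at PND 28. PND 17 and PND 21 overlapped. Its log2 fold change from PND 7 to PND 14 was -2.91 (SE 0.49), or -3.75 without PND 14 mouse 1.

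*Mest* (ENSMUSG00000051855, chr6:30673547-30698457 in mm9, plus strand) encodes a membrane protein of the hydrolase family, found in mesoderm. Its level was 30.1 and 52.0 CPM at PND 7, 4.73 and 7.49 CPM at PND 14, 6.91 and 7.74 CPM at PND 17, 1.91 and 1.92 CPM at PND 21, and 1.23 and 6.23 CPM at PND 28. The PND 28 mice spanned the PND 21 pair. Over the first interval the log2 fold change was -2.75 (SE 0.56), or -2.48 without PND 14 mouse 1. *Copg2*, on the opposite strand, shares 904 exon bases with *Mest* and held 14695 counts, and whether the counting used strand is not given in the sources used here, so *Mest* may include reads of *Copg2*.

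**Figure D2:**
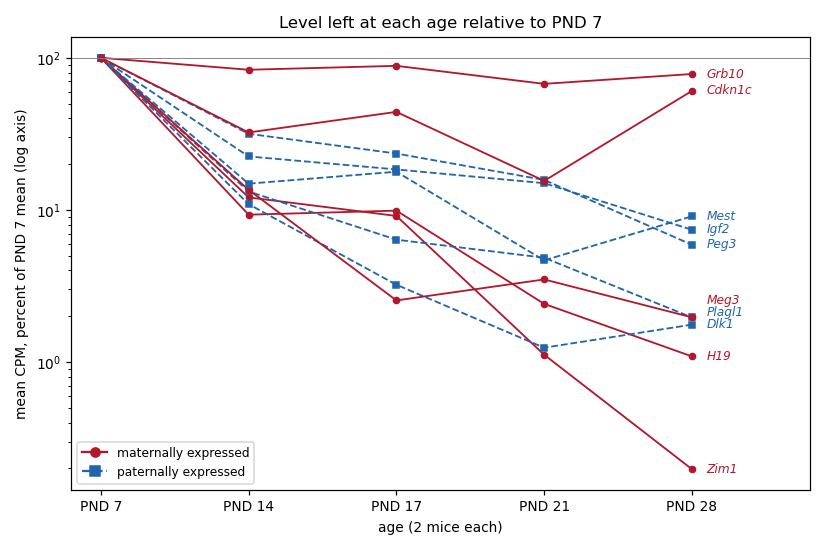
Mean CPM of 2 mice at each age as a percent of the PND 7 mean, on a log axis, for the 10 genes (solid red, maternally expressed; dashed blue, paternally expressed). At PND 28 the genes spread from 0.198% for *Zim1* to 78.2% for *Grb10*, and the 2 classes interleave between them.

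By interval, most of the drop came early. From PND 7 to PND 14 9 of the 10 genes, all but *Grb10*, were called lower, where 5.43% of all genes tested were called lower. The median log2 fold change of the 10 was -2.81, beside 0.106 over all genes tested. The genes were chosen for falling in these same mice, so nothing is read from either difference. Without PND 14 mouse 1 the log2 fold changes of the 10 ran from -4.12 for *Dlk1* to -0.15 for *Grb10*. From PND 14 to PND 17 none was called, and edgeR called 0 of 16860 genes (0%), although 769 had an unadjusted p under 0.05 and DESeq2 called 1. Without PND 14 mouse 1 edgeR again called 0, the log2 fold change of *Igf2* went from -0.32 to 0.34, that of *Dlk1* from -1.58 to -0.65, that of *Meg3* from -2.30 to -1.23 and that of *Plagl1* from -1.08 to -0.27. *H19* went from 0.07 to -0.19, *Grb10* from 0.09 to -0.06 and *Mest* from 0.26 to -0.04. From PND 17 to PND 21 2 genes, *H19* and *Zim1*, were called lower, where 1.05% of all genes were. Both calls were lost without PND 17 mouse 2 or without PND 21 mouse 2, and *H19* was also lost without PND 21 mouse 1. From PND 21 to PND 28 *Peg3* was called lower, where 0.297% of all genes were, and *Cdkn1c* was called higher, where 7.37% were.

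Per length, the order of the genes turned over. At PND 7 *H19* led with 48.6 ± 2.59 RPKM (SD, n = 2), above *Peg3* at 20.6 ± 2.44, *Zim1* at 17.1 ± 2.50 and *Dlk1* at 17.0 ± 6.91 RPKM. *Plagl1* followed at 13.8 ± 0.686 RPKM, then *Mest* at 11.3 ± 4.47, *Igf2* at 11.0 ± 1.44, *Grb10* at 10.8 ± 0.392, *Meg3* at 9.88 ± 0.156 and *Cdkn1c* at 8.39 ± 0.912 RPKM. Neighbours in this order whose mice did not overlap were *H19* and *Peg3*, *Peg3* and *Zim1*, *Grb10* and *Meg3*, and *Meg3* and *Cdkn1c*, and the other neighbours overlapped. At PND 28 *Grb10* led with 6.67 ± 0.686 RPKM and *Cdkn1c* followed with 3.98 ± 0.856 RPKM, apart from each other and from the rest. The remaining 8 lay between 0.025 RPKM for *Zim1* and 0.975 RPKM for *Peg3*.

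Summed over the 5 maternally expressed genes, the level went from 94.4 and 95.2 RPKM at PND 7 down to 11.7 and 10.8 RPKM at PND 28. Over the 5 paternally expressed genes it went from 63.4 and 84.0 RPKM in the youngest pair to 1.92 and 3.84 RPKM in the oldest. *Grb10* and *Cdkn1c* made up most of the maternal sum at PND 28, so the 2 sums do not compare the classes gene by gene. RPKM carries no TMM factor, so these falls across ages are not on the CPM scale used above. Between PND 7 and PND 28 the mean of *Grb10* went from 10.8 to 6.67 RPKM, and from 91.9 to 71.9 CPM.

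The 3 pairs of neighbours, each with 1 maternally and 1 paternally expressed gene, were followed as the ratio of counts per exon length in each mouse. *H19* and *Igf2* share enhancers and a control region, and their ratio was 5.04 and 3.99 at PND 7, 1.09 and 3.49 at PND 14, 2.58 and 2.27 at PND 17, 0.531 and 1.12 at PND 21, and 1.12 and 0.244 at PND 28. Thus *H19* exceeded *Igf2* in every mouse up to PND 17 and the 4 later mice lay on both sides of 1. *Meg3* over *Dlk1* was 0.796 and 0.465 at PND 7, 0.754 and 0.657 at PND 14, 0.403 and 0.688 at PND 17, 2.31 and 0.886 at PND 21, and 4.38 and 0.104 at PND 28. The first 6 mice kept a narrow range, and the PND 28 mice differed widely at 3 to 42 counts per gene. *Zim1* over *Peg3* was 0.815 and 0.840 at PND 7, 0.320 and 0.310 at PND 14, 0.341 and 0.309 at PND 17, 0.0714 and 0.0397 at PND 21, and 0 and 0.0416 at PND 28. This ratio was close between mice of an age up to PND 17, and its ages fell into 3 levels that did not overlap: PND 7, PND 14 with PND 17, and PND 21 with PND 28. With 2 mice against 2 the smallest exact permutation p is 0.333, and no test was made of ratios of genes chosen for their fall.

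**Figure D3:**
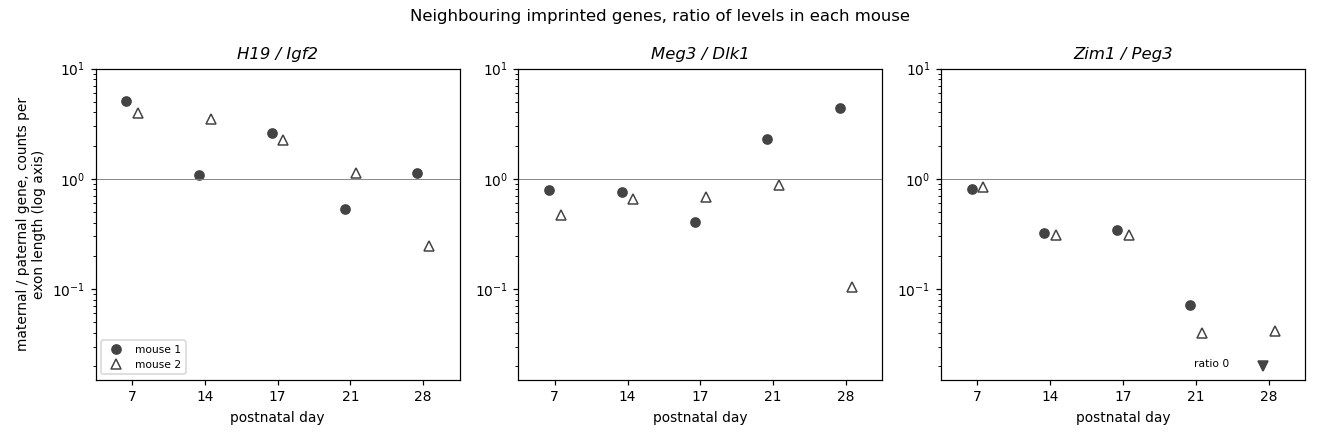
Ratio of the maternally to the paternally expressed gene of a pair, counts per exon length on a log axis, in each mouse by postnatal day (filled circle, mouse 1; open triangle, mouse 2; the downward triangle marks a ratio of 0). *Zim1* over *Peg3* steps down from about 0.8 to under 0.1, while the other pairs scatter more at PND 28.

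The promoters of *Peg3* and *Meg3* are shown since they stand for 1 gene of each parental class and hold the letters searched for. Of the 10 genes, 8 had 15 promoter entries in the RefSeq table of build GRCm38.p6, each running from 250 bases before to 50 bases after a transcript start, and *H19* and *Cdkn1c* had none. The motifs searched on both strands were GGGGCCCC, the kind of G and C run bound by the ZAC1 protein of *Plagl1*, TATAAA, the TATA box, and TGACGTCA, the cAMP response element, which was added after the sequences were seen. Capitals mark matches, and the sequences are at chr7:6730370-6730669 (minus strand) and chr12:109540746-109541045 (plus strand) in GRCm38.p6.
Peg3: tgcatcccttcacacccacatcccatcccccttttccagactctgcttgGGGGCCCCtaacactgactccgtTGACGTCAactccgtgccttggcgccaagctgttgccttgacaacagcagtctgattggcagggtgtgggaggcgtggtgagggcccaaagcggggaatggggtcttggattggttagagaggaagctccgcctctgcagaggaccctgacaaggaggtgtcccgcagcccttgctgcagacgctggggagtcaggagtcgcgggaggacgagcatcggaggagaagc
Meg3: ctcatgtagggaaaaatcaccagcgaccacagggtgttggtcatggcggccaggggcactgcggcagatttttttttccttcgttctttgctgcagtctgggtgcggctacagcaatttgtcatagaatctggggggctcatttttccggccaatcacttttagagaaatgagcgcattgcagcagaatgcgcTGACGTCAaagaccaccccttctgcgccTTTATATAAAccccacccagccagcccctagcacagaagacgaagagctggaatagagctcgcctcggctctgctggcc
GGGGCCCC was found in the *Peg3* promoter alone of the 15, its first base 201 bases before the start, and in 1.08% of the 32851 promoters of this length. TATAAA was found in this *Meg3* promoter alone, 25 bases before the start and overlapping its reverse complement, and in 13.6% of all promoters. TGACGTCA was found in both, 178 bases before the start of *Peg3* and 57 before that of *Meg3*, and in 1.79% of all promoters. The 15 promoters held 1 to 45 CpG sites (median 13), beside a median of 7 over all promoters. These matches describe letters and not bound sites.

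The 10 genes ran alike across the 10 mice, with *Cdkn1c* and *Grb10* the exceptions. Pearson's r of log2(CPM + 1) with their common profile was 0.612 for *Cdkn1c*, 0.722 for *Grb10* and 0.915 to 0.986 for the other 8. Over the 28 pairs among those 8, r ran from 0.735 to 0.974 (median 0.914). The genes were chosen for falling in these same libraries, so high values of r were built into the choice. The common profile is the mean of the 10 genes, so each gene was also compared with a profile that contains it. All points share the same 10 libraries, and the 5 ages account for most of the spread, so these values are a description. Among genes outside the list with a mean of at least 10 CPM, the 10 closest to the profile were *Rai1* (r = 0.996), *Zbtb1*, *Kdm5d*, *Bcan*, *Frem1*, *Zfp945*, *Sept8*, *Ccnd2*, *Araf* and *Gm2044* (r = 0.986). *Rai1*, a chromatin-associated regulator, went from 43.7 CPM at PND 7 to 12.3 CPM at PND 14 and 4.79 CPM at PND 28. *Ccnd2*, the cyclin D2 gene, went from 161 CPM at PND 7 to 47.5 CPM at PND 14 and 17.9 CPM at PND 28. *Bcan*, a proteoglycan gene, dropped the furthest of these, from 50.9 CPM at PND 7 to 0.204 CPM at PND 28.

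Within an age the 2 mice did not differ in one direction for all genes. At PND 7 none of the 10 differed by more than 2-fold between mice, and the ratio of the 2 barcodes of a mouse ran from 0.804 to 1.22 over the 10 genes. At PND 14 *Meg3*, *Igf2*, *Dlk1* and *Plagl1* were over 2-fold higher in mouse 1, the mouse with the spermatid RNA. *Meg3* and *Dlk1* were over 2-fold higher in mouse 1 at PND 17, *Dlk1* on 66 and 5 counts. At PND 21 *Meg3*, *Zim1* and *Igf2* were over 2-fold higher in mouse 1, *Zim1* on 4 and 2 counts. The spermatid markers summed to 70.4 and 68.7 CPM in the PND 21 mice. In the authors' read statistics mouse 1 of PND 14 and of PND 21 also had a larger share of intronic reads than mouse 2. The PND 17 pair and the PND 28 pair were each close in this share. Both PND 7 mice had a larger share than any later mouse. What part this library difference had in the levels of the 10 genes was not tested. At PND 28 *H19*, *Meg3* and *Plagl1* were over 2-fold higher in mouse 1 and *Zim1*, *Dlk1*, *Peg3* and *Mest* in mouse 2. At PND 28 these genes held between 0 and 88 counts in a mouse. Sertoli markers summed to 1797 and 954.6 CPM in the PND 14 mice, with *Clu* alone at 1153 and 441 CPM. *Wt1* was close in these mice at 107.2 and 105.7 CPM, and *Gata4* stood at 58.0 and 61.9 CPM. The other Sertoli markers were higher in mouse 1, such as *Sox9* at 51.6 and 28.1 CPM and *Cldn11* at 327 and 260 CPM. The part of Sertoli cells in the PND 14 gaps was not tested.

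Other imprinted genes did not move as a block. This list of 52 genes was drawn up by name, 48 of them were found and 37 were tested. Their parental classes were assigned by name too, and whether each gene is imprinted in testis was not measured. Between PND 7 and PND 28, 11 were called lower and 10 higher, beside 23.4% and 32.2% of all genes tested, with a median log2 fold change of -0.65 against 0.103 over all genes. By assigned class, 5 of the 19 maternal genes tested were lower and 6 higher, and 5 of the 17 paternal genes were lower and 4 higher. *Gnas*, whose parental expression depends on the isoform, was the remaining one called lower. Scaled by library totals alone, the split was 15 lower and 5 higher on this list, and 4984 lower and 4743 higher over all genes in place of 3948 and 5430.

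Of those called lower, *Nnat*, a small membrane protein gene, went from 8.31 and 8.33 CPM at PND 7 to 0.273 and 0.231 CPM at PND 28 (edgeR adjusted p = 0.000715). *Airn*, the noncoding RNA that silences *Igf2r* on the paternal copy, went from 6.71 and 7.12 CPM at PND 7 to 0.409 and 0 CPM at PND 28 (edgeR adjusted p = 0.000958). *Peg12* held 68 counts at PND 7 and 2 at PND 28 (edgeR adjusted p = 0.00648), a call lost without PND 28 mouse 2. The ratios of PND 7 to PND 28 by pooled counts were 32.4 for *Nnat* (exact 95% interval 10.9 to 159), 26.8 for *Airn* (8.95 to 132) and 22.8 for *Peg12* (6.06 to 192).

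Of the imprinted genes called higher, *Asb4*, which encodes a protein with ankyrin repeats and a SOCS box, went from 0.501 and 0 CPM at PND 7 to 59.7 and 29.9 CPM at PND 21 and 89.0 and 69.7 CPM at PND 28 (PND 7 to PND 28: log2 fold change 8.05, edgeR adjusted p = 3.17e-06). *Slc22a18*, a transporter gene, had 0 counts at PND 7 and 120 at PND 28 and was at least 59.8-fold higher, set against 3 counts over both PND 7 mice (edgeR adjusted p = 6.45e-05). *Rasgrf1* had 2 counts at PND 7 and 26 at PND 28, a 19.4-fold ratio (exact 95% interval 4.86 to 169) with an edgeR adjusted p of 0.0192 that was lost without PND 7 mouse 2 or PND 28 mouse 2. *Atp10a* was called lower from PND 7 to PND 14 (log2 fold change -1.26) and higher from PND 17 to PND 21 (1.65) and from PND 21 to PND 28 (1.11, edgeR adjusted p = 0.0411). The first of these calls was lost without PND 7 mouse 2 or PND 14 mouse 2, the second without PND 17 mouse 1 or 2 or PND 21 mouse 1, and the last without any 1 of the 6 mice of PND 17, PND 21 and PND 28. Over the 5 spermatid markers the summed CPM went from 0.601 and 0 at PND 7 to 70.4 and 68.7 at PND 21 and 4971 and 5910 at PND 28, and their part in these rises was not tested.

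In the first interval, PND 7 to PND 14, 5 of the 37 were called lower and 3 higher, beside 5.43% and 13.5% of all genes tested. *Rian*, a maternally expressed noncoding RNA of the *Dlk1* and *Meg3* domain, went from 208 and 217 CPM to 35.3 and 42.7 CPM (log2 fold change -2.44, SE 0.30, edgeR adjusted p = 0.000263) and stood at 20.5 and 17.3 CPM at PND 28. *Mirg*, the next noncoding RNA of that domain and the host of many miRNAs, went from 13.5 and 23.9 CPM to 4.73 and 2.89 CPM (log2 fold change -2.28, edgeR adjusted p = 0.00444), but stood at 21.5 and 15.7 CPM at PND 28. Its log2 fold change from PND 7 to PND 28 was 0.003 (SE 0.40), beside -5.53 (SE 0.76) for *Meg3* and -3.48 (SE 0.32) for *Rian*. *Usp29*, next to *Peg3*, had 48 counts at PND 7 and 1 at PND 14, a 46.0-fold ratio (exact 95% interval 7.87 to 1850), with an adjusted p of 0.0378 in edgeR and 0.0527 in DESeq2, and its call was lost without any 1 of 7 mice. *Copg2*, the antisense neighbour of *Mest*, rose from 89.8 and 65.6 CPM to 217 and 261 CPM (log2 fold change 1.62, edgeR adjusted p = 0.000598). *Nespas* rose from 9.61 and 4.57 CPM to 26.6 and 25.8 CPM (1.87, edgeR adjusted p = 0.00426) and shares 988 exon bases with *Gnas* on the other strand. *Asb4* was also called (2.84, edgeR adjusted p = 0.0259), a call lost without PND 7 mouse 2 or PND 14 mouse 2. Without PND 14 mouse 1 the values were -2.34 for *Rian*, -2.71 for *Mirg*, 1.71 for *Copg2*, 1.81 for *Nespas* and 3.11 for *Asb4*, all still called, and -4.31 for *Usp29*, not called. From PND 17 to PND 21 4 were called higher (9.29% of all genes were) and none lower, led by *Asb4* (3.33, edgeR adjusted p = 0.0033), *Slc22a18* (2.41, edgeR adjusted p = 0.0417) and *Atp10a*, and the *Slc22a18* call was lost without any 1 of the 6 mice of PND 17, PND 21 and PND 28. From PND 14 to PND 17 edgeR and DESeq2 called none of the 37, and 1 had an unadjusted p under 0.05. The split in PND 17 to PND 21 changed to 4 lower and 3 higher without PND 21 mouse 2, to 1 lower and 2 higher with library totals, and to 3 lower and 5 higher without a filter on low counts. *Rian* was among those called lower in each of these 3 settings. From PND 21 to PND 28 *Atp10a* was the only call.

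**Figure D4:**
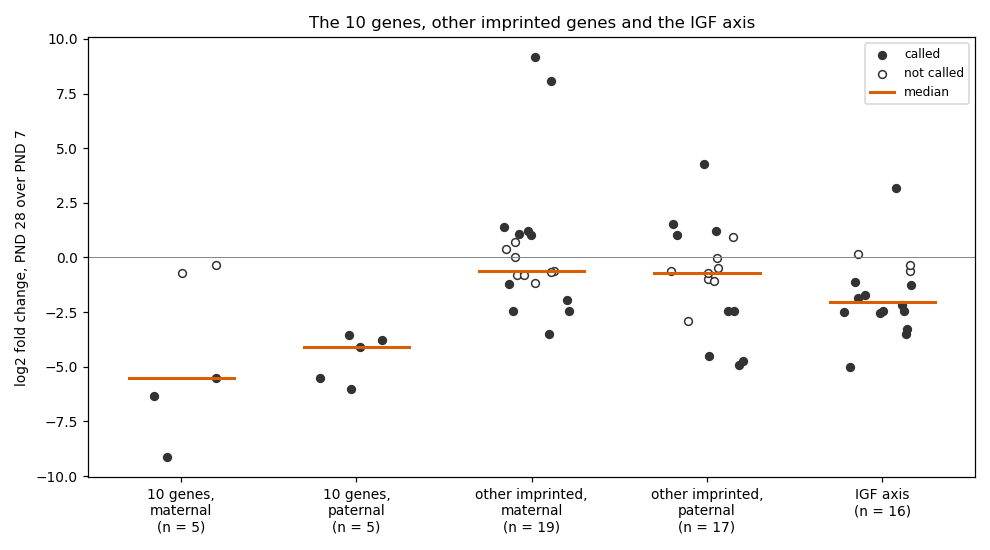
Log2 fold change from PND 7 to PND 28 for the 10 genes and the other imprinted genes by parental class, and for the IGF axis, with 1 point per gene (filled, called; open, not called) and the median as a bar. The other imprinted genes spread on both sides of 0 in both classes, and 12 of the 13 called IGF axis genes lie below 0.

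Most of the IGF axis, in which *Igf2* and *Grb10* act, was lower at PND 28. IGF1 and IGF2 act through the IGF1 receptor, the maternally expressed *Igf2r* gives the receptor that clears IGF2, and binding proteins and the protease PAPPA set how much ligand is free. Of 18 genes drawn up by name 16 were tested, and between PND 7 and PND 28 12 were called lower and 1 higher, beside 23.4% and 32.2% of all genes tested, with a median log2 fold change of -2.02 against 0.103 over all genes tested. *Igf2r* is on this list and on the imprinted one. All 5 interstitial stroma, 8 Sertoli and 5 spermatogonia markers were called lower over the same span, with median log2 fold changes of -2.78, -1.92 and -1.65. So were 3 of 5 peritubular myoid and 3 of 4 endothelial markers. Of 8 Leydig markers 1 was called lower and 3 higher, and none of 4 macrophage markers was called. The part of these cell types in the values of the axis was not tested.

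Among ligands and receptors all 4 tested fell. *Igf1* went from 184 and 268 CPM at PND 7 to 34.6 and 48.5 CPM at PND 28 (log2 fold change -2.45, SE 0.31, edgeR adjusted p = 5.75e-05). *Igf2r* went from 120.2 and 176 CPM to 16.6 and 37.9 CPM (-2.46, SE 0.41, edgeR adjusted p = 0.000372) and *Igf1r* from 54.4 and 54.3 CPM to 10.2 and 14.1 CPM (-2.17, SE 0.43, edgeR adjusted p = 0.00127). *Insr*, the insulin receptor gene, had a log2 fold change of -1.24 (edgeR adjusted p = 0.0205), a call lost without PND 7 mouse 1 or PND 28 mouse 1. Both adaptors, *Irs1* and *Irs2*, also fell, *Irs2* not without PND 7 mouse 2 or PND 28 mouse 1.

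Of the 6 binding proteins tested 3 fell. *Igfbp5* went from 25.4 and 67.5 CPM at PND 7 to 0.954 and 2.08 CPM at PND 28 (log2 fold change -5.01, SE 1.01, edgeR adjusted p = 0.00135). *Igfbp3* stood at 44.8 and 48.2 CPM at PND 7, 19.8 and 19.9 CPM at PND 14, 21.6 and 26.6 CPM at PND 17, and 6.68 and 5.94 CPM at PND 21, and was called lower both from PND 7 to PND 14 (-1.23, edgeR adjusted p = 0.00798) and from PND 17 to PND 21 (-1.93, edgeR adjusted p = 0.00373).

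The *Igf2* mRNA-binding proteins parted. *Igf2bp2* went from 7.11 and 8.33 CPM at PND 7 to 0.682 and 0.923 CPM at PND 28 (log2 fold change -3.27, SE 0.58, edgeR adjusted p = 0.000615), while *Igf2bp3* went from 23.0 and 10.6 CPM to 160 and 146 CPM (3.17, SE 0.37, edgeR adjusted p = 3.09e-05). *Igf2bp3* shares 1531 exon bases with a gene on the opposite strand, and strand use is not given. It was the only gene of the axis called from PND 21 to PND 28 (1.27, edgeR adjusted p = 0.0446), a call lost without any 1 of the 6 mice of PND 17, PND 21 and PND 28. From PND 14 to PND 17 edgeR and DESeq2 called none of the 16, and 1 had an unadjusted p under 0.05. *Pappa* was called lower from PND 7 to PND 14 (-1.98, edgeR adjusted p = 0.0074), as was *Igf1* (-1.07, edgeR adjusted p = 0.0255). *Igfbp3* and *Igf2bp2* (-1.63, edgeR adjusted p = 0.0393) were called lower too. These were 4 of the 16, beside 5.43% of all genes tested. The *Igf2bp2* call was kept only without PND 7 mouse 1 among the 10 mice left out in turn. Without PND 7 mouse 2 only *Igfbp3* of these 4 was called, and without PND 7 mouse 1 the list had 8 calls. Without PND 14 mouse 1 the list had 5 calls, which did not include *Igf1* or *Igf2bp2*.

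Relatives of the 10 genes that are not imprinted were measured as well. Between PND 7 and PND 28 *Plag1* and *Plagl2*, relatives of *Plagl1*, had log2 fold changes of -2.26 (edgeR adjusted p = 0.00101) and -1.20 (edgeR adjusted p = 0.0367), beside -5.52 for *Plagl1*. *Grb14*, a relative of *Grb10*, fell by 1.90 on the log2 scale (edgeR adjusted p = 4.16e-05), while *Grb10* had -0.36, and *Grb7* had 1.49 (edgeR adjusted p = 0.246). Of the other CDK inhibitors of the family of *Cdkn1c*, *Cdkn1b* had -0.97 (edgeR adjusted p = 0.00873, under the 2-fold limit) and *Cdkn1a* 1.85 (edgeR adjusted p = 0.116). *Igf1* is given above, and *Dlk2* was too low to test. The differences between relatives were not tested.

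Markers of spermatogonia and of most somatic cell types were also lower at PND 28. The summed CPM of 5 interstitial stroma markers was 1837 and 2424 at PND 7, 1149 and 1280 at PND 14, 1253 and 1356 at PND 17, 445.7 and 779.4 at PND 21, and 162 and 454 at PND 28. These sums were lower at PND 14 than at PND 7 and at PND 21 than at PND 17 without overlap, with PND 14 and PND 17 overlapping. Between PND 7 and PND 14 none of these 5, none of 8 Sertoli markers and 1 of 8 Leydig markers were called lower, with medians of -0.82, -0.65 and -0.31 on the log2 scale. Between PND 7 and PND 28 all 5 stroma, 8 Sertoli and 5 spermatogonia markers were called lower, with medians of -2.78, -1.92 and -1.65. So were 3 of 5 peritubular myoid and 3 of 4 endothelial markers, while 4 macrophage markers were not. Leydig markers summed to 413 and 375 CPM at PND 7 and 1187 and 922 CPM at PND 28, with 1 of 8 called lower and 3 higher. No marker of a somatic type was at 0 in both mice of any age. What part a dilution of somatic cells by germ cells had in the levels of the 10 genes was not tested.

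**Figure D5:**
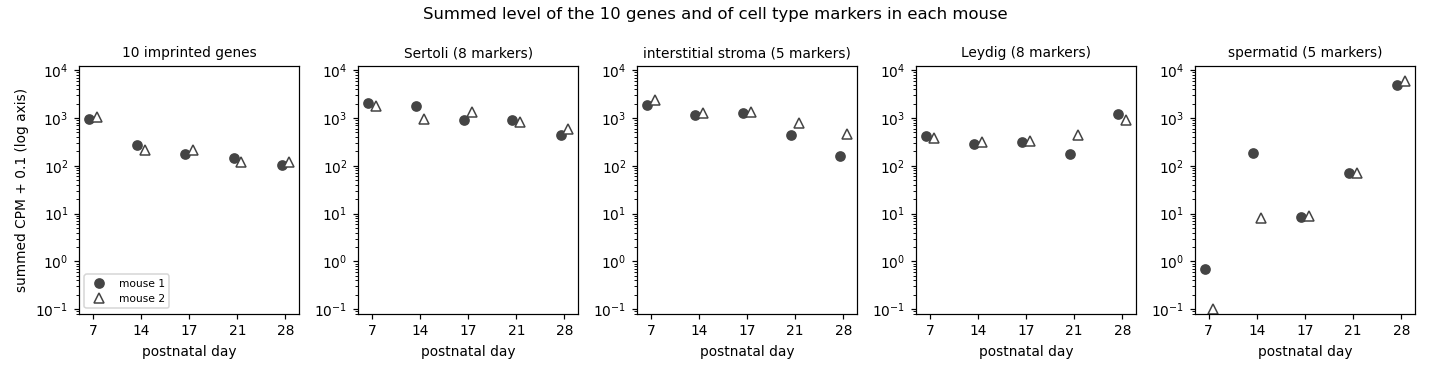
Summed CPM plus 0.1 on a log axis of the 10 imprinted genes and of 4 sets of cell type markers in each mouse by postnatal day (filled circle, mouse 1; open triangle, mouse 2). The 10 genes drop from 930.0 and 1033.3 CPM at PND 7 to 276.6 and 211.6 CPM at PND 14 and 104.0 and 120.2 CPM at PND 28, the stroma and Sertoli sums are lowest at PND 28, and PND 14 mouse 1 stands out most in the spermatid panel.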

How the data were processed

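The authors aligned SOLiD reads of rRNA-depleted RNA to the mouse genome (mm9, as in the submitters' processing notes) with LifeScope and deposited, for each library, the count of reads per gene and an RPKM value (reads divided by exon length and library size). Whether counting used strand is not given in the sources used here. A deposited number of exons with over 10 reads was not used for any result. The counts of the 2 barcodes of each PND 7 mouse were summed and their RPKM averaged, giving 10 mice. edgeR 4.0.16 (R 4.3.3; TMM factors, filterByExpr, quasi-likelihood test, age as group) was fitted to all mice, and genes were called at 2-fold and a Benjamini-Hochberg adjusted p under 0.05. Ages were compared as PND 7/14, 14/17, 17/21, 21/28 and 7/28. The study's own test, limma on RPKM (limma 3.58.1), and DESeq2 1.42.0 were alternatives, with other scalings, filters and each mouse left out. The fitting script was tested on simulated data. The labels give the 2 mice of an age as separate samples. The p-values weigh a difference between ages against the spread between mice of the same age. That spread was estimated for each gene over all ages together and moderated across genes. The 10 genes and all gene lists were chosen with earlier results of these data known. Genes named from the lists are up to 3 called genes with the largest fall and rise per comparison, all relatives, and the 10 genes closest to the common profile. *Igf1r*, *Igf2r*, *Insr*, *Irs1*, *Irs2*, *Gnas*, *Malat1* and later calls of genes already named were added after their values were seen. So were the *Rian* levels set beside *Meg3* and the single Sertoli markers at PND 14. Exact intervals cover counting error only. Files were joined to GENCODE M1 on the mm9 assembly, and sequences are from RefSeq tables (GRCm38.p6).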

Additional observations from a re-analysis of the deposited data

How the results depend on the processing

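The 10 genes kept the direction of their fold changes where these were called, under each alternative run. Every run reused mice in which these genes were chosen for falling, so the kept direction is no support for the fall. With each mouse left out in turn, the calls over all genes ran from 2002 to 4409 (PND 7/14), 0 to 175 (14/17), 266 to 2188 (17/21), 312 to 1704 (21/28) and 7898 to 10278 (7/28). For the other imprinted genes they ran from 4 to 8, 0 to 0, 1 to 7, 0 to 1 and 17 to 21, for the IGF axis from 1 to 8, 0 to 0, 1 to 4, 0 to 1 and 10 to 13, and for the 10 genes from 8 to 9, 0 to 0, 0 to 3, 0 to 2 and 8 to 8. In PND 7/14 leaving out PND 7 mouse 2 gave 2002 calls and PND 14 mouse 2 2086, in PND 14/17 PND 14 mouse 2 gave the 175, in PND 17/21 266 and 576 with PND 17 mouse 2 or 1 left out, 492 with PND 21 mouse 1 and 1158 with PND 28 mouse 1 left out, and in PND 21/28 312 and 459 with PND 21 mouse 2 or 1 and 463 and 579 with PND 28 mouse 1 or 2 left out. The fit then had fewer samples, and a lone mouse was assumed to vary like the other ages.

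Other settings moved these counts by over 1.5 times, and the cause was not tested unless named. With library totals the IGF axis had 2 calls in PND 7/14 and 0 in 21/28, and the other imprinted genes 0 in 21/28. Without a filter on low counts, which tests more genes, all genes had 357 calls in 14/17 and 1970 in 21/28, the other imprinted genes 8 in 17/21 and 4 in 21/28, and the IGF axis 2 and 3. With DESeq2 14/17 had 1 call, and with only the 4 mice of a comparison PND 7/14 had 2034. With separate PND 7 barcodes or without mitochondrial genes and small structural RNAs the other imprinted genes had 2 calls in 21/28, and in the second case the IGF axis 0. With limma on log2(RPKM + 1) the IGF axis had 2 calls in PND 7/14 and 0 in 21/28, all genes 6 in 14/17, and the other imprinted genes 2 in 17/21 and 0 in 21/28. With a pseudocount of 0.1 the IGF axis had 1 and 0, all genes 22 in 14/17, 601 in 17/21 and 713 in 21/28, and the other imprinted genes 1 in 17/21 and 0 in 21/28. The study's limits (p 0.01, 2-fold and a difference of 10 RPKM) were also used, with the p taken here as unadjusted. All genes then had 978, 4, 772, 845 and 3842 calls in order. The study itself reported many more genes in PND 14/17 than this rerun, and its counts for the other consecutive ages differed too. The other imprinted genes had 3 calls in PND 7/14, 1 in 17/21, 0 in 21/28 and 9 in 7/28. The IGF axis had 0, 0, 0 and 6, and low genes cannot reach a difference of 10 RPKM.

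Mice of different ages share only a number. The deviations of same-numbered mice correlated between -0.17 and 0.343, and with the mouse number as a replicate block the counts over all genes were 2947, 0, 1571, 1123 and 9228, and those of the other imprinted genes in 21/28 were 0. The depth limits *Zim1*, *Dlk1*, *H19* and *Mest* at PND 21 and PND 28, where a mouse held 0 to 27 counts, *Plagl1* (3 and 22) and *Meg3* (4 and 42) at PND 28, and *Cdkn1c* at PND 21 (7 and 17), on which its called rise rests.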
